A study of Mus musculus with 10 samples.

Results

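Interferon-stimulated genes are switched on when a cell senses type I or type II interferon, and the RNAs of 9 of them were followed here in mouse livers with or without a hepatocyte deletion in *Ndrg3*: *Ifit1*, *Ifit2*, *Ifit3*, *Rsad2*, *Oasl2*, *Gbp2*, *Irf7*, *Isg15* and *Usp18*. They were picked by gene symbol as widely used members of this response, and all 9 were among the 24052 symbols listed and among the 11208 genes with enough counts to be tested. The 5 control livers came from wild-type mice and the other 5 from Ndrg3 LKO mice, all labelled C57BL/6 and with food ad libitum (the methods name C57BL/6N for the backcross of the floxed line), and each liver gave 1 library. The LKO allele carries loxP sites on both sides of exon 4 of *Ndrg3*, and Cre under the albumin promoter removes this exon in albumin-expressing cells. Cells of the same liver that never express albumin, such as Kupffer cells and endothelial cells, would keep an intact gene, which was not measured here. Controls were wild-type littermates; whether they carried Cre or the floxed allele is not given beyond the word wild-type. The methods put the mice of this experiment at 8 to 10 weeks of age and a figure legend at 10 to 12 weeks, and the sources use male mice unless they say otherwise.

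Type I interferons bind the receptor made of IFNAR1 and IFNAR2, and the kinases JAK1 and TYK2 then phosphorylate STAT proteins, which join IRF9 and bind interferon-stimulated response elements in promoters. Interferon gamma acts through IFNGR1 and IFNGR2, and its signal ends at gamma-activated sites. In liver, hepatocytes and non-parenchymal cells both respond to interferon, and resident macrophages are among the cells that sense foreign nucleic acid and produce it.

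The promoter sequences that carry the response element are shown first, since the 9 genes are grouped by the signal they answer to. The core of the interferon-stimulated response element was searched for as GAAANNGAAA, and the core of the gamma-activated site as TTCNNNGAA, on both strands of the 300-base RefSeq promoter windows of GRCm38.p6. These windows run from 250 bases before to 50 after each start site. Of the 9 genes, 8 had an entry, and 5 of these 8 held the first motif, against 3.44% of all 32851 promoter windows. Since the genes were picked as members of this response, this share reflects that choice and is no result about these livers. The second motif was found in 1 of the 8, *Ifit2*, in the window of the first of its 2 start sites, against 8.30% of all windows. The stretches holding the first motif follow, read in the direction of transcription, with each match in capitals; they were placed on NCBIM37 (mm9) by exact match. A match is written on its reverse strand, as TTTCNNTTTC, in *Ifit1*, *Ifit3*, *Rsad2* and *Gbp2*.
Isg15, chr4:155574964-155575025, minus strand, 3 overlapping matches: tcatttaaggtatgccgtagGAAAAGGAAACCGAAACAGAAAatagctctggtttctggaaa
Ifit1, chr19:34715255-34715323, plus strand, 2 matches: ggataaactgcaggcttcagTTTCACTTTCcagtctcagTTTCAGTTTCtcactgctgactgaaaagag
Ifit3, chr19:34657843-34657926, plus strand, 2 matches: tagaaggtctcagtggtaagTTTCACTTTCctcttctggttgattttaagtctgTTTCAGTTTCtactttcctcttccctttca
Rsad2, chr12:27141408-27141457, minus strand, 1 match: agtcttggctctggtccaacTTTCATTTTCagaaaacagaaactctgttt
Gbp2, chr3:142283558-142283587, plus strand, 1 match: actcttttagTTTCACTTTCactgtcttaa

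The first match in each stretch began 104 bases before the RefSeq start site in *Ifit1*, 156 in *Ifit3*, 120 in *Rsad2*, 59 in *Gbp2* and 78 in *Isg15*. The RefSeq start of *Gbp2* lies 61 bases after the annotated mm9 start, so its match lies inside the annotated gene. The windows of *Ifit2*, *Irf7* and *Oasl2* held no match to the first motif. The *Ifit3* stretch occurred in 2 places on chromosome 19, the other being 34682239 to 34682322, just before the annotated start of *I830012O16Rik* (also called *Ifit3b*). A match is a run of letters and not a measured binding site.

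**Figure D1:**
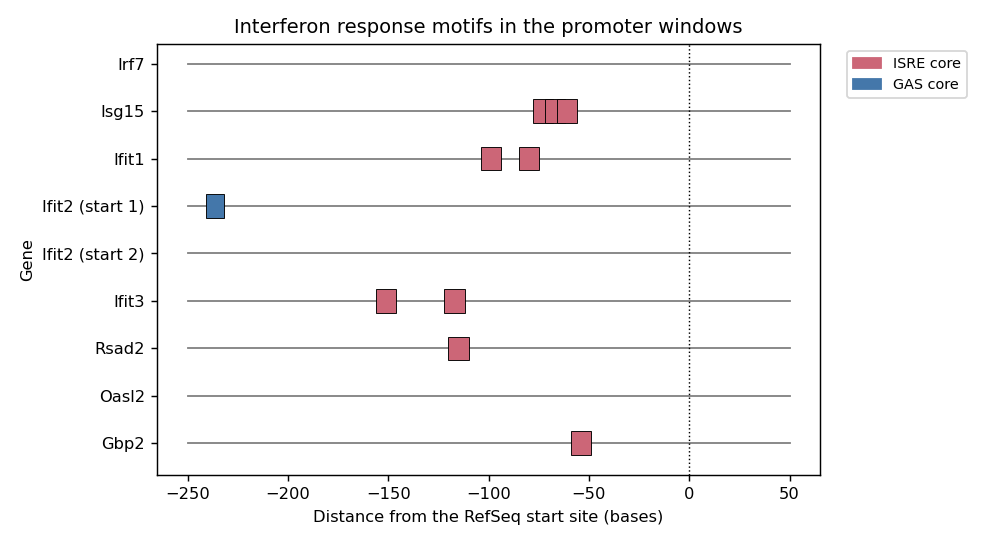
Position of motif matches in the RefSeq promoter windows of 8 interferon-stimulated genes, as distance in bases from the start site; boxes mark the ISRE core and the GAS core, and grey lines the searched windows. Matches to the ISRE core lie between 156 and 59 bases before the start in the 5 genes that have one.

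The libraries held 20872262 to 24747870 counts per wild-type liver and 23474693 to 30450057 per Ndrg3 LKO liver, so 3 counts, taken as the smallest signal a library can show, corresponded to 0.0985 to 0.144 CPM, which is counts rescaled to a common library total; this floor covers counting error only. This floor and the 1 CPM filter for testing use library totals alone. All other CPM values are also scaled with the trimmed mean of M values (TMM). *Ndrg3* itself was at 15.9 to 21.9 CPM in wild-type and 7.07 to 9.16 CPM in Ndrg3 LKO livers, counted over the whole gene. The Ndrg3 LKO liver labelled replicate 5 stood apart: the summed CPM of 12 hepatocyte markers was 179012 in it, 47075 to 57304 in the other Ndrg3 LKO livers and 176452 to 216658 in wild-type livers, although its *Ndrg3* level was 8.25 CPM. Results are therefore given with and without this liver where it alters a call or the count of a list. *Alb* was the largest part of this hepatocyte sum, at up to 107850 CPM in Ndrg3 LKO livers. The groups did not overlap for 5 of the 12 markers, beside 31.5% of all tested genes. For these 5, every Ndrg3 LKO liver, replicate 5 included, was below every wild-type liver. They ranged from *Cyp2e1* (at most 1381 against at least 12229 CPM) to *Trf* (16229 against 17058 CPM). A legend of an expression figure in the study counts fewer Ndrg3 LKO livers than the files hold and does not say which was left out. The changes were broad, with 48.6% of all tested genes passing an adjusted p of 0.05 with all 10 livers and 54.5% without replicate 5. In whole-liver RNA, fewer cells of a type and less RNA per cell cannot be told apart.

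The 9 genes did not move as a block. With the quasi-likelihood test of edgeR, *Usp18* and *Gbp2* were higher in Ndrg3 LKO livers, *Irf7* was lower, and *Ifit1*, *Ifit2*, *Ifit3*, *Rsad2*, *Oasl2* and *Isg15* did not pass an adjusted p of 0.05. That is 3 of 9, or 33.3%, against 48.6% of all tested genes. The 2 that were higher stand beside 25.6% of all genes and the 1 that was lower beside 23.0%. The median log2 fold change of the 9 was 0.51, and that of all tested genes 0.03. The groups did not overlap for 1 of the 9, *Irf7*, where 31.5% of all tested genes had groups that did not overlap. Without Ndrg3 LKO replicate 5, 5 of the 9 passed, 2 higher and 3 lower, since *Ifit1* and *Rsad2* joined *Irf7*, beside 3063 genes higher and 2899 lower of the 10930 tested in that fit. When counts were scaled by library size alone, the median of all genes moved from 0.03 to 0.56 on the log2 scale, and 6 of the 9 passed, 5 higher and 1 lower, against 60.9% of all tested genes, 51.9% higher and 9.01% lower. Values below are TMM-scaled CPM, listed from replicate 1 to 5, and every log2 fold change is Ndrg3 LKO against wild-type.

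**Figure D2:**
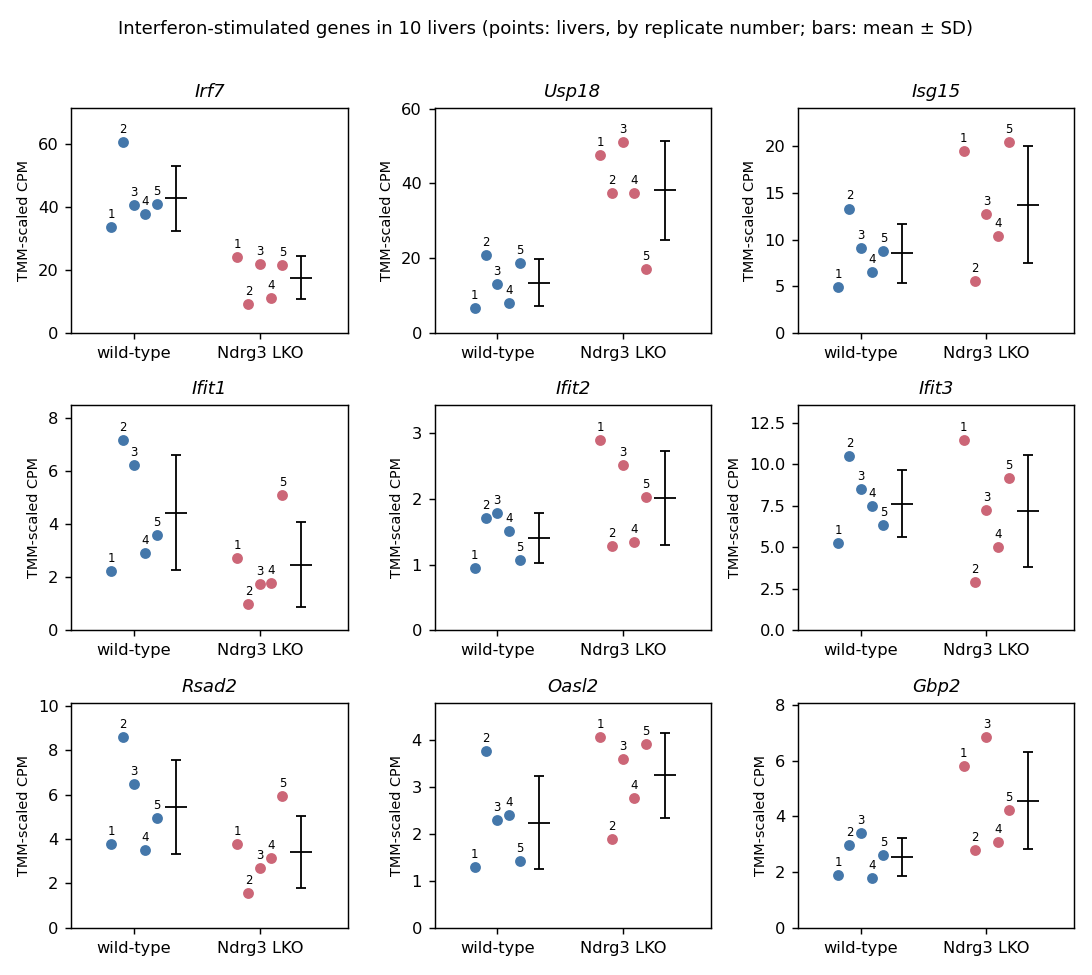
TMM-scaled CPM of the 9 genes in each of the 10 livers, with points labelled by replicate number and black bars giving the mean and SD of the 5 livers of a group. *Irf7* is the gene whose groups do not overlap, and *Usp18* in Ndrg3 LKO replicate 5 (17.1 CPM) lies among the wild-type values.

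*Irf7* encodes the transcription factor that amplifies type I interferon production once a first wave of interferon has induced it. Its annotated gene spans chromosome 7 from 148448605 to 148452380 on the minus strand of mm9. It was at 33.7, 60.7, 40.6, 37.8 and 41.0 CPM in the wild-type livers and at 24.0, 9.21, 21.9, 11.0 and 21.5 CPM in the Ndrg3 LKO livers. The lowest wild-type liver was above the highest Ndrg3 LKO liver, and wild-type replicate 2 was well above the other 4. The means were 42.7 ± 10.4 and 17.5 ± 6.87 CPM (SD, n = 5 each), a 2.44-fold lower level in Ndrg3 LKO livers. The log2 fold change was -1.29 with a standard error of 0.27 (edgeR adjusted p = 0.00255; exact 2-sided permutation test, p = 0.00794, the smallest that 252 splits can give). *Irf7* passed in all 19 alternative fits, with log2 fold changes of -1.40 to -0.79. It shares 45 bases with *Phrf1* on the opposite strand, and the strand setting of the counting is not given; *Phrf1* had a log2 fold change of 0.11 (edgeR adjusted p = 0.651).

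*Usp18* encodes the protease that removes ISG15 from proteins and that also binds IFNAR2 to damp signalling from the type I receptor. The gene lies on chromosome 6 from 121195924 to 121220934 on the plus strand. Its values were 6.74, 20.7, 13.1, 7.90 and 18.7 CPM in wild-type livers and 47.7, 37.3, 51.0, 37.4 and 17.1 CPM in Ndrg3 LKO livers. All of replicates 1 to 4 with the deletion were above the highest wild-type liver, and replicate 5 was within the wild-type range. The mean rose from 13.4 ± 6.25 to 38.1 ± 13.3 CPM (SD, n = 5 each), a 2.84-fold higher level with a log2 fold change of 1.51 and a standard error of 0.35 (edgeR adjusted p = 0.00427; exact permutation p = 0.0238). Without replicate 5 the level was 3.28-fold higher (log2 fold change 1.72, edgeR adjusted p = 5.27e-04). It passed in all 19 alternative fits, with log2 fold changes of 1.23 to 2.09.

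*Isg15* encodes the ubiquitin-like protein that USP18 removes, and it did not pass. Its gene lies on chromosome 4 from 155573533 to 155574927 on the minus strand. Its levels were 4.94, 13.3, 9.13, 6.57 and 8.75 CPM in wild-type livers and 19.5, 5.60, 12.8, 10.4 and 20.5 CPM in Ndrg3 LKO livers. Ndrg3 LKO replicates 1 and 5 were above every wild-type liver, whereas replicate 2 was near the bottom of the wild-type range. The log2 fold change was 0.68 with a standard error of 0.35 (edgeR adjusted p = 0.121; exact permutation p = 0.183). Leaving out Ndrg3 LKO replicate 2 brought it past the threshold (log2 fold change 0.89, edgeR adjusted p = 0.0240), as did library-size scaling (1.15, edgeR adjusted p = 0.00636).

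Because *Irf7*, *Usp18* and *Isg15* were counted in the same library, the ratio of 2 of their counts does not depend on how libraries are scaled; these ratios were chosen after the values were seen and are given as a description. The count of *Usp18* was 0.2 to 0.456 of that of *Irf7* in wild-type livers and 0.794 to 4.05 of it in Ndrg3 LKO livers. The *Isg15* to *Irf7* ratio was 0.147 to 0.225 in wild-type and 0.585 to 0.952 in Ndrg3 LKO livers. Neither ratio overlapped between the groups, Ndrg3 LKO replicate 5 included. *Irf7*, the lower part of both ratios, did not overlap on its own either, and how often other pairs of genes do so was not counted. For *Usp18* over *Isg15*, the ranges were 1.20 to 2.14 and 0.834 to 6.67, which overlapped.

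The *Ifit* genes encode tetratricopeptide proteins that bind viral or incompletely capped RNA, and the 3 studied here are neighbours on chromosome 19, *Ifit2* from 34625184 to 34650909, *Ifit3* from 34658021 to 34663221 and *Ifit1* from 34715361 to 34724499, all on the plus strand. None of the 3 passed with all 10 livers. *Ifit1* was at 2.25, 7.18, 6.24, 2.89 and 3.57 CPM in wild-type livers and at 2.73, 0.99, 1.75, 1.80 and 5.09 CPM in Ndrg3 LKO livers. Its values in Ndrg3 LKO replicates 2 to 4 were below every wild-type liver, while replicate 5 was above 3 of them. This gave a log2 fold change of -0.86 with a standard error of 0.44 (edgeR adjusted p = 0.121; exact permutation p = 0.111). Without Ndrg3 LKO replicate 5 it was -1.26 with a standard error of 0.38, a 2.40-fold lower level (edgeR adjusted p = 0.0152).

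*Ifit2* was at 0.954, 1.71, 1.78, 1.52 and 1.07 CPM in wild-type livers and at 2.90, 1.28, 2.52, 1.34 and 2.03 CPM in Ndrg3 LKO livers, on counts of 17 to 101 reads. Ndrg3 LKO replicates 1, 3 and 5 were above the wild-type range and the other two within it. The log2 fold change was 0.51 with a standard error of 0.29 (edgeR adjusted p = 0.163), and 1.02 with library-size scaling, where it passed (edgeR adjusted p = 0.0111). *Ifit3* was at 5.28, 10.5, 8.52, 7.49 and 6.37 CPM in wild-type livers and at 11.5, 2.93, 7.23, 5.02 and 9.19 CPM in Ndrg3 LKO livers. The Ndrg3 LKO livers thus lay on both sides of the wild-type range. The log2 fold change of *Ifit3* was -0.09 with a standard error of 0.32 (edgeR adjusted p = 0.827), and it turned to 0.39 with library-size scaling. Of the 100-base windows of its transcripts, 31.7% also occur in transcripts of *I830012O16Rik*, so reads of this pair could not be assigned with certainty. For *Ifit1*, 3.29% of windows are shared with *2010002M12Rik* (also called *Ifit1bl2*), which had at most 2 counts in a liver. *I830012O16Rik* was at 1.25 to 2.93 CPM in wild-type and 0.921 to 3.05 CPM in Ndrg3 LKO livers and did not pass (log2 fold change 0.08, edgeR adjusted p = 0.857).

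*Rsad2*, *Oasl2* and *Gbp2* encode antiviral effectors of different kinds. *Rsad2*, on chromosome 12 from 27127618 to 27141317, minus strand, makes viperin, an enzyme that turns a nucleotide into a terminator of viral RNA synthesis. Its values were 3.76, 8.60, 6.46, 3.49 and 4.94 CPM in wild-type livers and 3.79, 1.58, 2.68, 3.13 and 5.94 CPM in Ndrg3 LKO livers. As for *Ifit1*, replicates 2 to 4 of the Ndrg3 LKO group were below every wild-type liver. Its log2 fold change was -0.68 with a standard error of 0.35 (edgeR adjusted p = 0.121; exact permutation p = 0.111), and without replicate 5 it was -0.94, a 1.92-fold lower level (edgeR adjusted p = 0.0252).

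*Oasl2*, on chromosome 5 from 115346943 to 115362243, plus strand, encodes a relative of the oligoadenylate synthetases with ubiquitin-like domains. It was at 1.29, 3.76, 2.28, 2.39 and 1.43 CPM in wild-type livers and at 4.05, 1.89, 3.58, 2.76 and 3.91 CPM in Ndrg3 LKO livers. This gave a log2 fold change of 0.53 with a standard error of 0.31 (edgeR adjusted p = 0.179), with 4 of 5 Ndrg3 LKO livers above the wild-type mean. It passed without wild-type replicate 2 (log2 fold change 0.80, edgeR adjusted p = 0.0443) and with library-size scaling (1.02, edgeR adjusted p = 0.0129). Its relative *Oasl1* fell, from 5.19 ± 1.69 to 2.16 ± 0.996 CPM (SD, n = 5 each), with a log2 fold change of -1.28 (edgeR adjusted p = 0.0162) and no overlap between the groups.

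*Gbp2*, on chromosome 3 from 142283566 to 142300972, plus strand, encodes a guanylate-binding GTPase that acts on the membranes of intracellular pathogens and answers strongly to interferon gamma. It was at 1.91, 2.98, 3.40, 1.79 and 2.62 CPM in wild-type livers and at 5.81, 2.81, 6.85, 3.08 and 4.24 CPM in Ndrg3 LKO livers. Ndrg3 LKO replicates 1, 3 and 5 were above the wild-type range, and replicates 2 and 4 were inside it. The level rose 1.80-fold, a log2 fold change of 0.84 with a standard error of 0.29 (edgeR adjusted p = 0.0300; exact permutation p = 0.0476). The call was lost without wild-type replicate 1, 4 or 5 (edgeR adjusted p = 0.0705, 0.0688 and 0.0508), without Ndrg3 LKO replicate 1 or 3 (0.0646 and 0.0722), and after quantile normalization with limma (adjusted p = 0.0997). Its relatives *Gbp3* and *Gbp7* had log2 fold changes of 0.25 (edgeR adjusted p = 0.580) and -0.14 (edgeR adjusted p = 0.715).

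**Figure D3:**
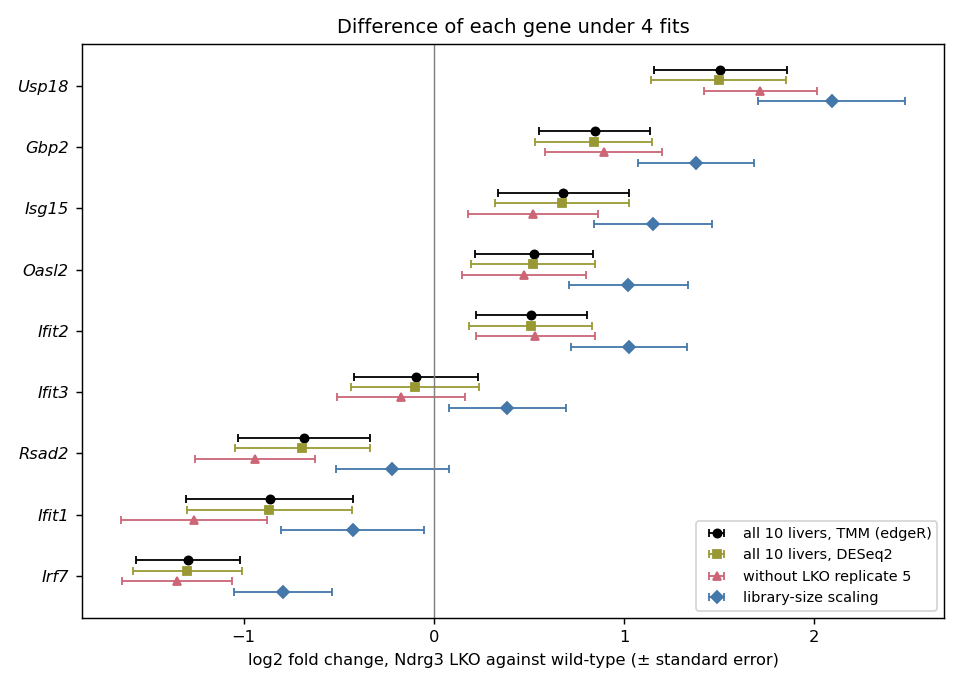
Log2 fold change of each of the 9 genes, Ndrg3 LKO against wild-type, with its standard error, from 4 fits: edgeR with TMM on all 10 livers, DESeq2, edgeR without Ndrg3 LKO replicate 5, and edgeR with library-size scaling. In the 4 fits shown, *Ifit3* lies on both sides of 0 and the other 8 genes each stay on one side.

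Per length of annotated exon, the order of levels differed between the groups. In wild-type livers *Irf7* was at 14.1 CPM per kb, followed by *Isg15* at 11.3, *Usp18* at 7.59, *Ifit3* at 4.37, *Ifit1* at 1.67, *Rsad2* at 1.26, *Gbp2* at 1.01, *Oasl2* at 0.575 and *Ifit2* at 0.358 CPM per kb. In Ndrg3 LKO livers *Usp18* was at 21.5 CPM per kb, followed by *Isg15* at 18.2, *Irf7* at 5.79, *Ifit3* at 4.11, *Gbp2* at 1.81, *Ifit1* at 0.931, *Oasl2* at 0.835, *Rsad2* at 0.791 and *Ifit2* at 0.513 CPM per kb. The ranges over livers overlapped in 7 of 8 pairs of neighbours in the wild-type order, with *Ifit3* above *Ifit1* as the exception, and in 8 of 8 in the Ndrg3 LKO order.

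Within a group, some livers were high or low for most of the 9 genes. Wild-type replicate 2 held the highest value of its group for 7 of the 9 genes and wild-type replicate 1 the lowest for 7. Ndrg3 LKO replicate 2 was the lowest of its group for 8 of the 9, with *Usp18* as the exception. Ndrg3 LKO replicate 5 held the highest value of its group for *Ifit1*, *Rsad2* and *Isg15* and the lowest for *Usp18*. The highest liver exceeded the lowest by 1.80- to 3.20-fold in the wild-type group and by 2.14- to 5.12-fold in the Ndrg3 LKO group. The summed CPM of a list of 12 Kupffer cell and macrophage markers was 130, 354, 158, 171 and 229 in wild-type replicates 1 to 5 and 906, 285, 854, 482 and 407 in Ndrg3 LKO replicates 1 to 5. Wild-type replicates 2 and 1 were thus also the highest and lowest of their group in this sum, and Ndrg3 LKO replicate 2 the lowest of its own. Ndrg3 LKO replicates 1 and 3, the highest of their group for 4 and 2 of the 9 genes, ranked 1 and 2 of 5 in it. Some livers did not follow this sum: wild-type replicate 3, the highest for *Ifit2* and *Gbp2*, and Ndrg3 LKO replicate 5 each ranked 4 of 5 in it.

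Between the groups, 12 of 12 macrophage markers were higher in Ndrg3 LKO livers, where 25.6% of all tested genes were higher and 23.0% lower. The part of these markers in the changes of *Usp18*, *Gbp2* and *Irf7* was not tested. None of these markers was at 0 in every liver, and their sum ran from 130 to 354 CPM in wild-type and from 285 to 906 CPM in Ndrg3 LKO livers. Within each group *Irf7*, *Ifit3* and *Oasl2* were highest and lowest in the same livers as this sum. Between the groups *Irf7* was lower, while *Ifit3* and *Oasl2* did not pass (log2 fold changes -0.09 and 0.53). Of the other marker lists, 9 of 10 for endothelial cells and 7 of 10 for stellate cells were higher, and 9 of 12 for hepatocytes were lower, with *Apoc3* higher (log2 fold change 0.68, edgeR adjusted p = 0.0335). Without Ndrg3 LKO replicate 5, 10 of 12 hepatocyte markers were lower. Of 6 tested cholangiocyte markers, 1 was higher and 1 lower, and their list summed to 49.8 to 80.4 CPM in wild-type and 56.9 to 228 CPM in Ndrg3 LKO livers. Leaving out Ndrg3 LKO replicate 5 gave 2 higher and 1 lower of the 6. The monocyte and neutrophil list summed to 4.09 to 8.99 CPM in wild-type and 7.17 to 29.6 CPM in Ndrg3 LKO livers, and the 1 marker of it that was tested was higher. The 10 markers of plasmacytoid and conventional dendritic cells summed to 2.98 to 5.50 CPM in wild-type and 3.13 to 5.46 CPM in Ndrg3 LKO livers, and 1 of them had enough counts to be tested. No marker of T and NK cells or of B cells had enough counts, with sums of at most 9.19 CPM for the B cell list.

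The genes whose deviations from the group means were most like the mean deviation of the 9 were *Slfn2* (Pearson's r = 0.97), *Ssr1* (0.97), *Csrp1* (0.96), *Soat1* (0.96) and *Lsp1* (0.95), over the 10 livers; the points share libraries and their scaling, and the values are a description. *Slfn2*, itself interferon-inducible, was higher in Ndrg3 LKO livers (2.82-fold, edgeR adjusted p = 0.00815), whereas *Ssr1*, a subunit of the translocon-associated protein complex of the endoplasmic reticulum, was lower (-0.34, edgeR adjusted p = 0.0342).

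**Figure D4:**
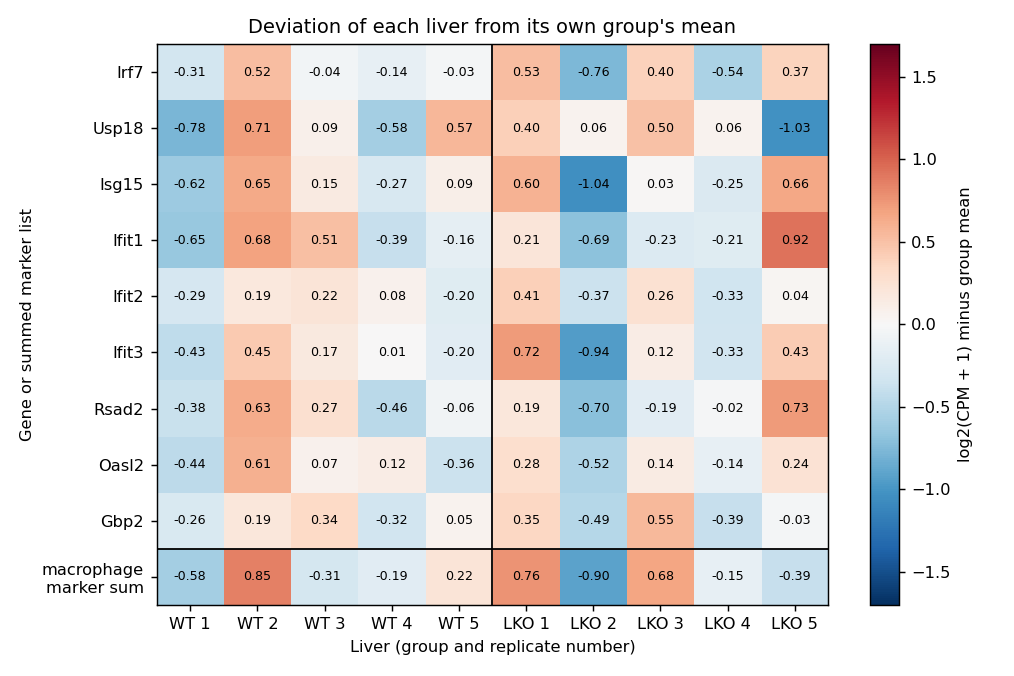
Deviation of each liver from the mean of its own group in log2(CPM + 1) for the 9 genes and, in the bottom row, for the summed macrophage markers. Wild-type replicate 2 is above its group mean in all rows, and Ndrg3 LKO replicate 2 is below it in all but *Usp18*.

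The rest of the interferon pathway was described from lists of 173 further genes that are listed in the files, 125 of which had enough counts to be tested. Of these, 30 were higher and 31 lower, which is 48.8% against the 48.6% of all tested genes. The median log2 fold change over the 125 was 0.08. With library-size scaling the split was 59 higher and 12 lower, in step with all genes, for which it was 5821 and 1010 in place of 2865 and 2578. Without Ndrg3 LKO replicate 5, 32 were higher and 32 lower of 124 tested. The counts of each list below stand beside 25.6% of all tested genes higher and 23.0% lower. Without that replicate, 54.5% of all tested genes passed in either direction. Of the 125, 6 reached 1 CPM in at most 1 liver of one group, so that they were tested because of the other; 3 of these are in the counts of called genes, *Tlr7*, *Gbp11* and *Fcgr1*, and are given below as values only.

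The interferons themselves were at or near 0. Of 21 interferon genes, 16 had 0 counts in every liver, and the other 5, *Ifnb1*, *Ifnab*, *Ifnk*, *Ifnz* and *Ifng*, had 9 counts between them with at most 1 in a liver. All were below the floor of 3 counts per library, so no difference was detectable at this depth.

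Among receptors, kinases and STATs, 3 of 10 tested genes were higher and 3 lower, and without Ndrg3 LKO replicate 5 these counts were 4 and 4. The type I chains *Ifnar1* and *Ifnar2* fell, with log2 fold changes of -0.50 and -0.92 (edgeR adjusted p = 0.00714 and 0.00313); for *Ifnar1* this was 0.00 with library-size scaling. *Ifngr1*, the ligand-binding chain for interferon gamma, rose from 12.6 ± 1.90 to 38.1 ± 7.90 CPM (SD, n = 5 each; log2 fold change 1.60, edgeR adjusted p = 4.34e-05). *Il10rb*, a chain shared by the receptors for interleukin-10 and interferon lambda, rose from 4.10 ± 0.670 to 14.9 ± 3.02 CPM (1.87, edgeR adjusted p = 2.18e-05). *Stat2* was higher, with a log2 fold change of 0.58 (edgeR adjusted p = 0.00729). *Jak2* was lower with TMM scaling at -0.44 (edgeR adjusted p = 0.0186) and at 0.09 with library-size scaling. *Ifngr2*, *Jak1*, *Tyk2* and *Irf9* did not pass, with log2 fold changes of 0.12, -0.08, -0.45 and 0.32, and *Ifnlr1* had too few counts. Without Ndrg3 LKO replicate 5, *Tyk2* (-0.55, edgeR adjusted p = 0.0410) and *Irf9* (0.44, 0.0391) passed.

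Among sensors of nucleic acid and their signalling partners, 6 of 17 were higher and 5 lower, and without Ndrg3 LKO replicate 5 these counts were 6 and 5 of 16. The endosomal receptor *Tlr3* (log2 fold change 0.66, edgeR adjusted p = 0.0150), its trafficking partner *Unc93b1* (0.64, 0.0135), *Tmem173*, which encodes STING (1.17, 0.0204), and the cytosolic RNA sensor *Ddx58*, or RIG-I (0.62, 0.0243), were higher. The endosomal receptor *Tlr7* was at 0.230 to 1.07 CPM in wild-type and 1.16 to 2.88 CPM in Ndrg3 LKO livers. The adaptor *Myd88* (-1.26, 7.51e-05), the cytosolic RNA sensors *Ifih1* (-0.83, 0.00101) and *Dhx58* (-1.22, 0.00607), and the transcription factor *Irf5* (-1.08, 0.00678) were lower by the same edgeR test. *Irf3*, the factor that starts interferon production before IRF7 is made, was at 59.8 ± 5.21 and 63.5 ± 6.23 CPM (SD, n = 5 each) and did not pass (log2 fold change 0.09, edgeR adjusted p = 0.540).

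Of 55 other type I targets tested, 14 were higher and 14 lower, with a median log2 fold change of -0.09; without Ndrg3 LKO replicate 5, 13 were higher and 15 lower. The 4 with the greatest rises were *Lgals3bp* (log2 fold change 1.57, edgeR adjusted p = 0.00189), *Slfn2*, *Ifi204* (1.16, 0.00505), a cytosolic DNA sensor of myeloid cells, and *Ube2l6* (1.09, 6.24e-04), the conjugating enzyme for ISG15. Those with the greatest falls were *Tor3a* (-1.81, 2.28e-04), *Apol9b* (-1.65, 0.0397), the antiviral GTPase *Mx2* (-1.30, 0.00462) and *Oasl1*. Without Ndrg3 LKO replicate 5, *Apol9b* was 6.16-fold lower (log2 fold change -2.62, edgeR adjusted p = 1.90e-04).

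Of 27 GTPases and other interferon-gamma targets tested, 5 were higher and 4 lower, with a median log2 fold change of 0.46; without Ndrg3 LKO replicate 5, 6 were higher and 4 lower. The GTPases *Igtp* (log2 fold change 1.54, edgeR adjusted p = 0.00439), *Gbp6* (1.20, 0.0192) and *Irgm2* (1.10, 0.0115) were higher. The GTPases *Gbp10* (-1.51, 0.0148), *Iigp1* (-1.24, 2.18e-05) and *Irgm1* (-0.97, 9.17e-04) were lower by the same edgeR test. *Gbp11* was at 3.21 to 6.57 CPM in wild-type and 0.145 to 0.805 CPM in Ndrg3 LKO livers, and *Fcgr1*, the high-affinity Fc receptor of macrophages, at 0.919 to 1.86 and 1.79 to 6.20 CPM. *Gbp2* and its GTPase relatives thus fell on both sides of 0, and *Iigp1* was at 157 to 209 CPM in wild-type and 72.3 to 84.8 CPM in Ndrg3 LKO livers.

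Of 16 negative regulators tested, 2 were higher and 5 lower, with a median of -0.07; without Ndrg3 LKO replicate 5, 3 were higher and 4 lower. *Tnfaip3*, the ubiquitin-editing enzyme A20, rose from 1.93 ± 0.263 to 5.48 ± 1.27 CPM (SD, n = 5 each; log2 fold change 1.51, edgeR adjusted p = 2.12e-04), and *Irf2bp1* rose by less (0.51, 0.00890). *Rnf125*, a ubiquitin ligase for RNA sensors, was lower (-1.38, edgeR adjusted p = 0.0230), as were the repressor *Irf2* (-0.65, 0.0166), the deubiquitinase *Cyld* (-0.42, 0.0147) and the phosphatase *Ptpn1* (-0.39, 0.0315). With library-size scaling *Cyld* and *Ptpn1* turned to 0.10 and 0.14.

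The 36 pathway genes named for passing do not include *Ddx58*, and they hold *Tlr7*, *Gbp11* and *Fcgr1*, which were tested because of one group. Of the 36, 30 passed in every fit with 1 liver left out that tested them. *Tlr7*, *Gbp11* and *Fcgr1* are counted among the 30, but their calls depend on that filter and add no support. *Tlr7* and *Gbp11* were tested in only 5 of these 10 fits. The other 6 lost the call in some of these fits: *Jak2* and *Rnf125* without replicate 1 or 4 of either group (edgeR adjusted p up to 0.0600 and 0.0648), *Irf2* without wild-type replicate 1 or Ndrg3 LKO replicate 1 or 4 (up to 0.0550), *Cyld* without Ndrg3 LKO replicate 1 or 4 (up to 0.0579), *Apol9b* in 8 of 10 fits, all but those without Ndrg3 LKO replicate 2 or 5 (up to 0.0820), and *Ptpn1* in 7, all but those without wild-type replicate 1 or 3 or Ndrg3 LKO replicate 3 (up to 0.0967). With library-size scaling, the falls of *Irf5*, *Ifih1*, *Oasl1*, *Gbp10*, *Rnf125* and *Irf2* no longer passed (edgeR adjusted p = 0.0808, 0.0668, 0.0763, 0.0577, 0.176 and 0.751), nor did those of *Ifnar1*, *Jak2*, *Cyld* and *Ptpn1*. After quantile normalization with limma, *Gbp6*, *Tmem173* and *Ptpn1* no longer passed (adjusted p = 0.0668, 0.0694 and 0.0820).

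**Figure D5:**
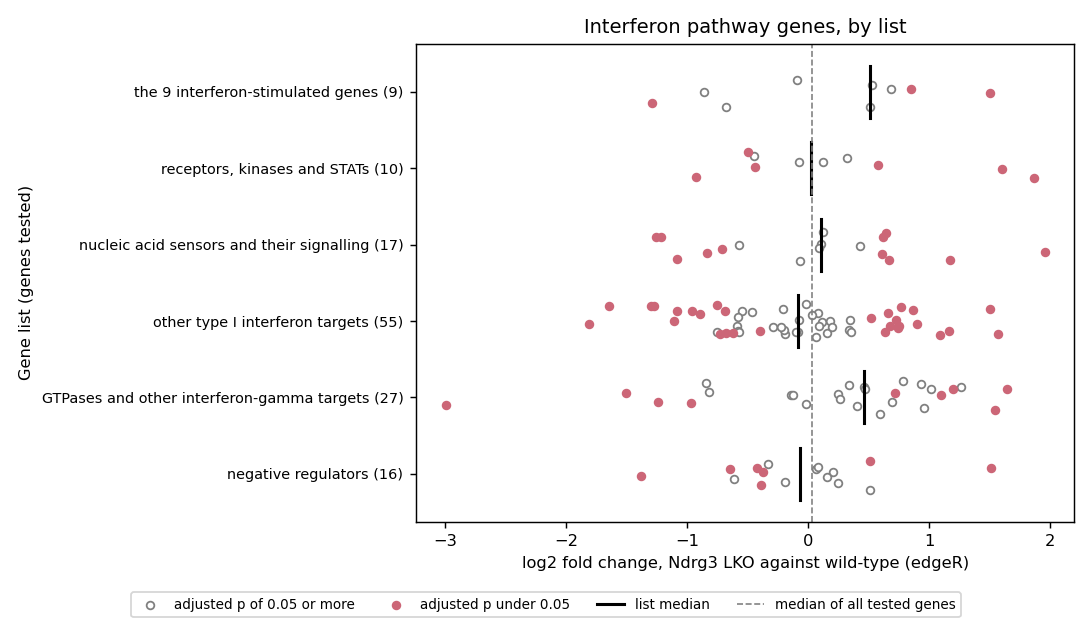
Log2 fold change of each tested gene, Ndrg3 LKO against wild-type, for the 9 interferon-stimulated genes and 5 further lists of the interferon pathway; filled points have an edgeR adjusted p under 0.05, black bars are list medians and the dashed line is the median of all tested genes. Points lie on both sides of 0 in each list.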

How the data were processed

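RNA of 10 livers was sequenced as 100 bp paired ends after stranded mRNA library preparation, and the authors used STAR both to align reads, against mm9, and to count genes. The submitters' processing notes name Trim Galore 0.6.4, STAR 2.7.3a and Cufflinks 2.2.1; the annotation and the strand setting are not given in the sources used here. The deposited values are whole-number counts per gene symbol with totals that differ between livers, although the files are named for CPM.

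A gene was tested where 5 or more livers reached 1 CPM (11208 of 24052). Wild-type and Ndrg3 LKO livers were compared with edgeR 4.0.16 (TMM, quasi-likelihood test) in R 4.3.3, with Benjamini-Hochberg adjustment over all tested genes and a threshold of 0.05. Each standard error came from the F statistic of its gene. Exact permutation tests, 2-sided, ran over 252 splits on log2(CPM + 1). Alternatives used DESeq2 1.42.0, limma 3.58.1, other scalings and filters, each liver left out, and the replicate number as a block. On simulated counts with 200 of 11208 genes changed between the groups, edgeR recovered 159 with 10 false calls: 66 of 102 at a log2 change of 1 and 93 of 98 at 2. The simulation changed far fewer genes than were called in the livers and held no outlying liver, so its rates need not carry over. Counts differed beyond sampling in each of the 20 within-group pairs, at a chi-square per degree of freedom of 27.5 to 479. Whether littermates share a replicate number is not given. The main test was unpaired and set each group difference against the spread between livers, so a pairing by litter, if any, was not used.

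Positions, exon lengths and shared 100-base windows came from GENCODE on NCBIM37 (mm9), where 20945 of the 24052 symbols were found, and promoter windows from RefSeq (GRCm38.p6). The 9 genes, the pathway and marker lists and the tests were chosen with earlier results of these data known. Some genes of the pathway are not reported here. Named were the 9 genes, their close relatives, the receptor and interferon lists, the 5 genes of most similar deviation and, in each other list, up to 4 called genes with the largest rises and up to 4 with the largest falls. A few more genes (*Irf3*, *Ddx58*, *Apoc3*, *Phrf1*) were named after their values were seen.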

Additional observations from a re-analysis of the deposited data

Results flagged for a closer look

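In 11 of 110 sets of 5 livers looked at, 1 liver lay further from the rest than Dixon's limit for a group of 5 (0.71 of the group's range); chance flags about 1 in 20 groups, or 5%. Values are TMM-scaled CPM.

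Of the 9 interferon-stimulated genes, *Irf7* was flagged in wild-type replicate 2, at 60.7 against 33.7 to 41.0 in the other 4 wild-type livers. The same liver was high for *Unc93b1*, at 33.6 against 19.2 to 23.0, and for *Fcgr1*, at 1.86 against 0.919 to 1.01. Wild-type replicate 4 was high for *Gbp11*, at 6.57 against 3.21 to 3.93.

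Ndrg3 LKO replicate 5 was flagged in 3 genes and 2 marker sums. It was at 24.2 for *Ifngr1*, against 39.6 to 43.6 in the other 4 Ndrg3 LKO livers, at 26.5 for *Ifnar1*, against 19.3 to 20.7, and at 100.4 for *Apol9b*, against 6.08 to 30.7. The summed hepatocyte markers were 179012 in it, against 47075 to 57304, and the summed B cell markers 9.19, against 0.848 to 2.62. Ndrg3 LKO replicate 2 was low for *Dhx58*, at 1.04 against 2.68 to 3.16, and Ndrg3 LKO replicate 4 was high for *Irf2bp1*, at 34.0 against 24.4 to 26.6.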

How the results depend on the processing

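Over the 9 genes and 19 alternatives, 154 of 171 values kept their direction and their side of the threshold, 6 lost the call, 7 gained it and 4 turned. *Irf7* and *Usp18* passed in all 19, with adjusted p of 3.42e-05 to 0.0175 and 1.11e-04 to 0.0168. The number of the 9 genes called was 6 in place of 3 with library-size scaling, and 2 to 5 with 1 liver left out, the 5 being without Ndrg3 LKO replicate 5. *Ifit3*, at -0.09, turned to 0.39 with library-size scaling and ranged from -0.31 to 0.12 with 1 liver left out, being above 0 without wild-type replicate 2 (0.04) or Ndrg3 LKO replicate 2 (0.12) or 4 (0.03). An absolute log2 fold change above 1 left 26 of 61 pathway genes and 2301 of 5443 genes, by construction of the added threshold. For the replicate numbers, the deviations of same-numbered livers correlated at -0.357 to 0.036 across genes. These values cannot decide whether same-numbered livers share a litter or batch, since such an effect may be small beside the spread between livers. With the replicate block 3 of the 9 genes, 48 pathway genes and 4412 genes in all were called. Of the pathway genes named for passing, *Oasl1*, *Jak2* and *Ptpn1* then had edgeR adjusted p of 0.0551, 0.0759 and 0.0971. Relative to the all-gene median, library-size scaling gave -1.35 for *Irf7*, 1.53 for *Usp18* and -0.17 for *Ifit3*. At the depth used, *Ifit2* rested on 17 to 101 counts per liver, and the interferon genes were below what could be compared.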
